A study of Mus musculus with 6 samples.

Results

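The genes described here encode the motile cilium and its axoneme, together with the regulators that switch on the multiciliated cell program, in the cerebellum of newborn mice. All protein-coding genes of the count table named *Dnah*, *Dnai*, *Dnal*, *Dnaaf*, *Rsph* or *Tekt* with a number were taken, plus *Foxj1*, *Mcidas*, *Gmnc*, *Ccno*, *Hydin*, *Spag6l*, *Spag16*, *Spag17*, *Ccdc39*, *Ccdc40*, *Nme5*, *Drc1* and *Tppp3*. This rule gave 47 of the 54532 genes in the table, spread over 16 chromosomes. By name alone they were divided into 9 roles, from regulators to tektins.

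Motile cilia beat because dynein arms on the outer microtubules of the axoneme pull on the neighbouring microtubule, while radial spokes, the central apparatus and the nexin-dynein regulatory complex coordinate the strokes. In the brain they are known from the ependymal cells that line the ventricles, and epithelial cells of the choroid plexus carry cilia too. Mcidas and Gmnc start the multiciliated program and Foxj1, a forkhead transcription factor, turns on the genes of the axoneme together with RFX factors.

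Poly-A RNA of whole cerebella at postnatal day 1 was sequenced in 6 libraries. The 3 Ctrl libraries came from control littermates of genotype Tox3f/f without Cre, and the 3 cKO libraries came from conditional knockout animals of genotype Nestin-cre;Tox3f/f. Both groups therefore carried the floxed *Tox3* alleles, and cKO alone carried the Nestin-cre transgene, which expresses Cre recombinase in neural progenitors and their descendants. The transgene and the loss of *Tox3* cannot be told apart in this comparison, which asks which RNAs differ when *Tox3* is deleted in the nervous system. The labels do not say how animals or litters map to libraries, so p-values measure the spread between these libraries.

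Total counts on genes lay between 15391854 and 17178478 per library, and levels are given in CPM, which scales each count to TMM-normalized library totals, with 3 counts no more than 0.196 CPM. *Tox3* itself was counted at 987, 968 and 1003 reads in Ctrl 1, 2 and 3 and at 959, 970 and 951 reads in cKO 1, 2 and 3. Its log2 fold change was −0.11 (SE 0.06, adjusted p = 0.252 in edgeR). The count covers the whole gene rather than the floxed part and so does not check the labels, and Ctrl and cKO stand here for the libraries so labelled. The libraries were of both sexes, with a summed level of Y-chromosome genes between 220.5 and 275.2 CPM in Ctrl 1, cKO 1 and cKO 3 and between 30.43 and 33.26 CPM in the other 3. Granule lineage genes were present in all libraries, with summed levels between 2590 and 4460 CPM over 10 genes, as were Purkinje cell genes, with 1570 to 2480 CPM over 8 genes.

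Most of the motile cilium genes were detected at low levels and lay higher in cKO than in Ctrl. Of the 47 genes, 44 passed edgeR's filter on low counts, and 43 of these exceeded its minimum of 0.642 CPM in all 6 libraries. A gene was called when its adjusted p in the quasi-likelihood test of edgeR (Benjamini-Hochberg) was under 0.01 and its log2 fold change beyond 0.5. By this rule 9 of the 44 were higher in cKO, namely *Foxj1*, *Dnah2*, *Dnah9*, *Dnah10*, *Dnah11*, *Rsph4a*, *Drc1*, *Tekt5* and *Nme5*, where 3.03% of all 17505 tested genes were called higher. They fell in 6 of the 9 roles. Only *Dnah17* was called lower, where 3.63% of all tested genes were. At an adjusted p under 0.05 without a limit on fold change, 17 of the 44 were higher, against 12.2% of all genes, and 1 was lower, against 12.9%.

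The direction was shared more widely than the calls. The log2 fold change was above 0 for 39 of the 44 genes, against 49.1% of all tested genes. The 3 cKO libraries all lay above the 3 Ctrl libraries for 27 of the 44, against 20.4% of all tested genes, and all below them for 2 genes, *Dnah14* and *Dnah17*, against 20.1%. The median log2 fold change was 0.53, with a range from −0.70 to 1.10, beside −0.01 over all tested genes. In bulk RNA a larger share of ciliated cells and more RNA per ciliated cell cannot be told apart.

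The number of calls depended on single libraries. Without Ctrl 1, Ctrl 2 or Ctrl 3 the count of genes called higher was 5, beside 2.31%, 2.11% and 2.04% of all tested genes. Without cKO 1, cKO 2 and cKO 3 it was 6, 7 and 4, beside 2.03%, 3.16% and 1.94%. The call of *Foxj1*, *Dnah2* and *Rsph4a* was kept whichever of the 6 libraries was left out.

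**Figure D1:**
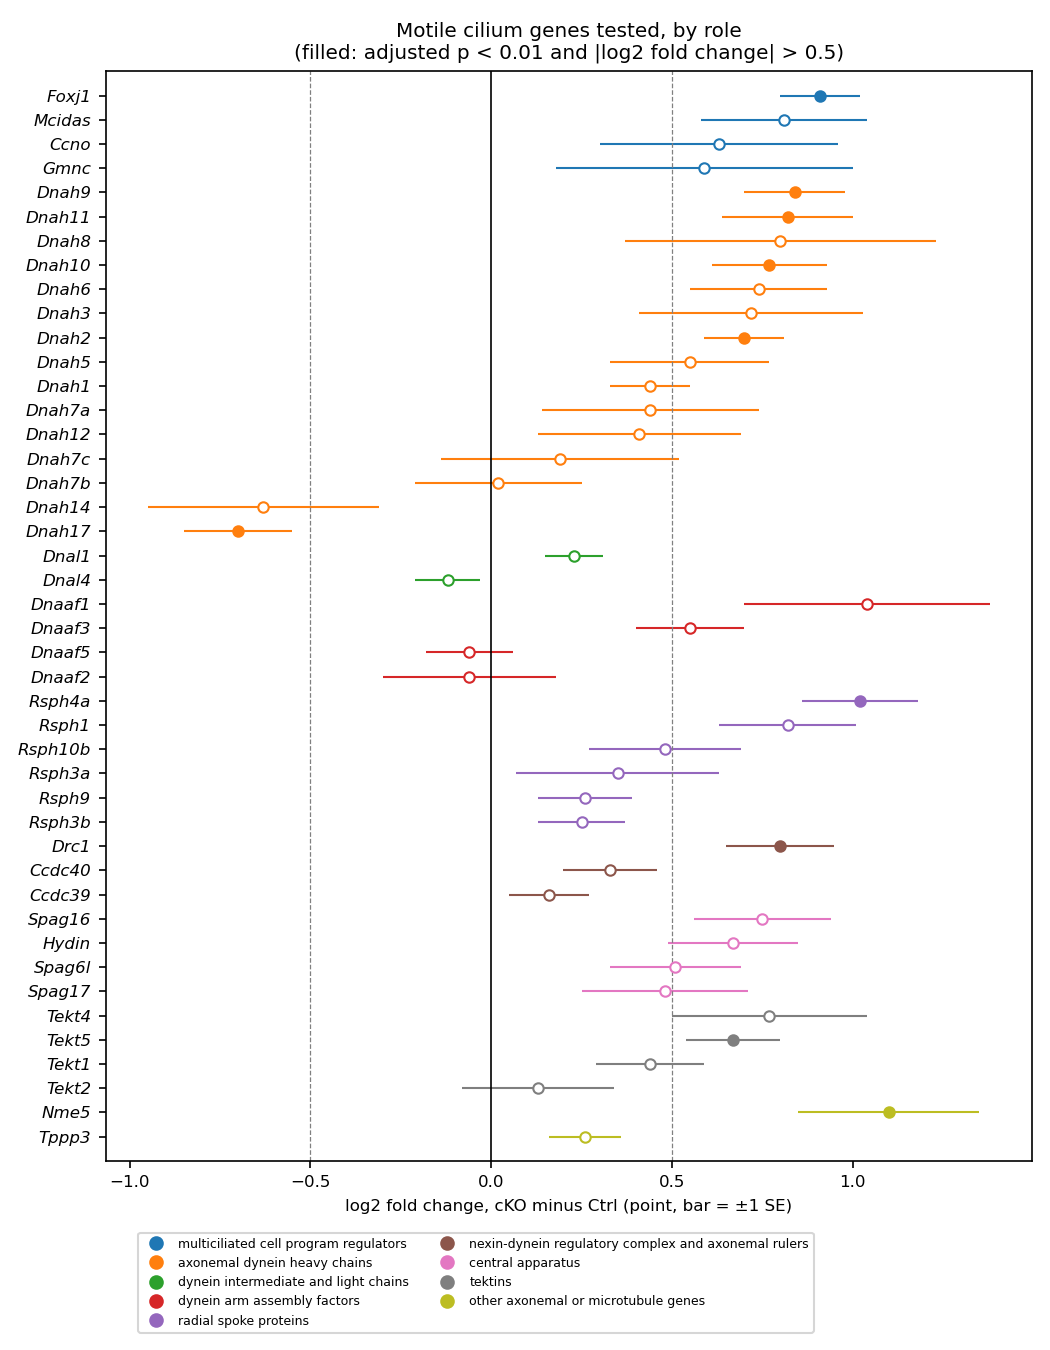
Log2 fold change, cKO minus Ctrl, of the 44 tested motile cilium genes (points, with bars of ± 1 SE), grouped and coloured by role; filled points passed both thresholds and dashed lines mark log2 fold changes of −0.5 and 0.5. The points lie right of 0 for 39 genes, and the only filled point left of 0 is Dnah17.

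In FPKM, a level scaled to gene length and sequencing depth, 25 of the 47 genes had a mean of at least 1 over all libraries. *Tppp3* was highest in Ctrl, at 16.9 ± 2.0 FPKM (mean ± SD, n = 3), followed by *Dnal4* at 13.5 ± 0.915 and *Foxj1* at 12.5 ± 1.84 FPKM, whose spreads overlapped. In cKO the order of these levels was *Foxj1* at 23.6 ± 1.56 FPKM, *Tppp3* at 20.4 ± 1.69 FPKM and *Dnal4* at 12.5 ± 0.701 FPKM. Dynein heavy chains, the motor subunits encoded by very long genes, had lower levels, with means over all libraries between 0.0767 FPKM for *Dnah8* and 1.23 FPKM for *Dnah2*.

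**Figure D2:**
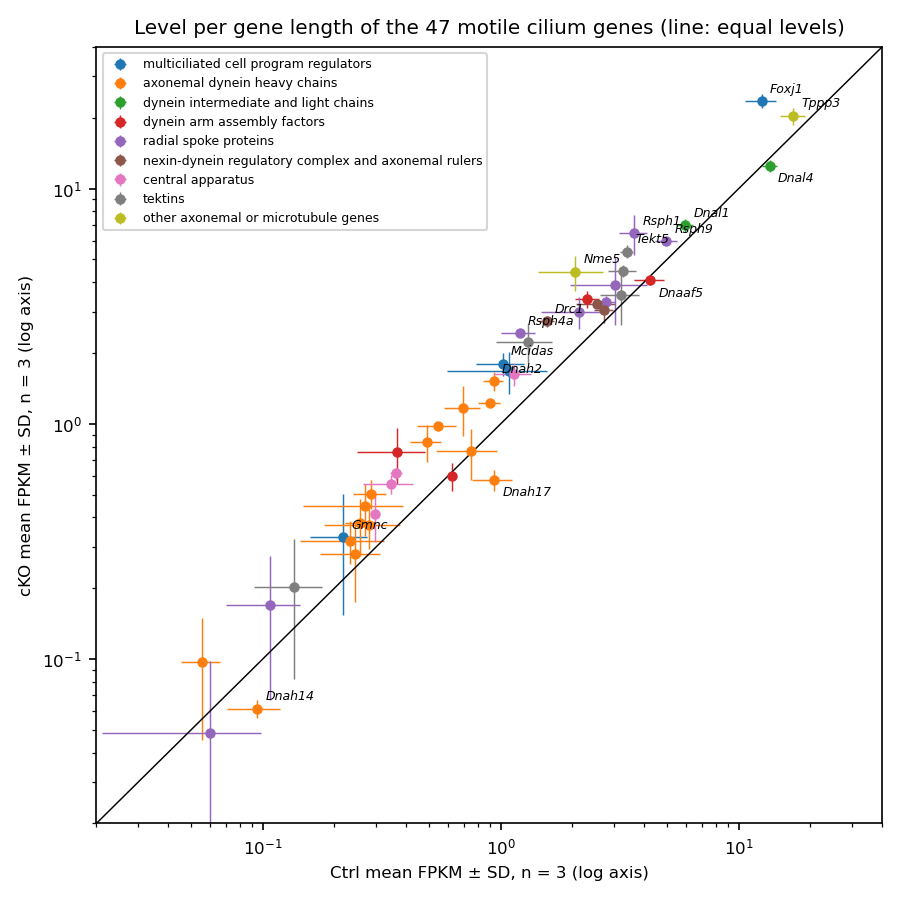
Mean level per gene length in FPKM of the 47 motile cilium genes in Ctrl (horizontal log axis) and cKO (vertical log axis), with bars of ± 1 SD over 3 libraries, colours for roles and a line of equal levels; bars that reach 0 are cut at the edge. Most points lie above the line, with Foxj1 at 12.5 against 23.6 FPKM at the upper end, and Dnah17 lies below it at 0.936 against 0.578 FPKM.

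The promoters of these genes were searched for the letters that RFX factors and forkhead factors are known to bind, because these factors control axonemal genes. RefSeq promoter sequences of GRCm38.p6, from 250 bases before to 50 bases after each start, were matched by symbol and position for 38 of the 47 genes, which gave 43 promoters. The core letters GTTGCC of the X-box, read on both strands, was found in 17 of the 43 promoters, or 39.5%, and in 12.5% of all 32851 promoters. Counted by gene, 16 of 38 genes, or 42.1%, had it in a promoter, against 14.1% of all 27025 genes. Of the genes called higher, 6 had a promoter in the table and 2 of them, *Dnah10* and *Drc1*, had the core. The 5 stretches below show the match in these 2 called genes, in the regulator *Mcidas*, and in *Spag16* and *Tekt1*, which hold the core on both strands within a short distance. Each is written 5′ to 3′ along the gene's strand, with the core in capitals (GGCAAC is GTTGCC on the other strand), and positions are those of the first base relative to the RefSeq start. *Dnah10* has it at −20 (chr5:124725040-124725084, + strand), *Drc1* at −11 (chr5:30281357-30281392, + strand), *Mcidas* at −195 (chr13:112993648-112993703, + strand), *Spag16* at −111 and −103 (chr1:69826834-69826897, + strand) and *Tekt1* at −35 and −15 (chr11:72361883-72361942, − strand).
Dnah10: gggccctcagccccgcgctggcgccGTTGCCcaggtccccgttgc
Drc1: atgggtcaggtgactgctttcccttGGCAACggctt
Mcidas: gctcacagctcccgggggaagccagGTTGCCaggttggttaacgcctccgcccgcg
Spag16: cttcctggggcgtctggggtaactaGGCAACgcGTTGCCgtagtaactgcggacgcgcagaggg
Tekt1: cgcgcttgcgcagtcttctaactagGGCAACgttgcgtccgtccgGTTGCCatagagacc
A longer X-box pattern, GTTGCC and GGNAAC with 0 to 3 bases between them, contains the core. This pattern was in 0 of the 43 promoters and in 0.551% of all promoters. It leaves out other letters in place of GGNAAC, such as the AGTAAC that follows GTTGCC after 2 bases in the *Spag16* stretch above. The 0 therefore describes these exact letters only, not every form of the longer X-box. For a pattern this rare, 0 of 43 promoters cannot show a lack. The forkhead letters GTAAACA were in 2 of the 43, or 4.65%, and in 3.65% of all promoters. The stretches around the core of *Dnah7a* and *Dnah7c*, counted as separate promoters, were alike at 48 of 56 bases, and a match describes letters only, not binding.

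Among the regulators, *Foxj1* carried the clearest difference. *Foxj1* (ENSMUSG00000034227; GRCm38 chromosome 11, 116330704 to 116335399, minus strand), the forkhead factor of motile ciliogenesis, was at 38.1, 32.7 and 28.3 CPM in Ctrl 1, 2 and 3 and at 57.3, 65.2 and 64.3 CPM in cKO 1, 2 and 3. The lowest cKO library lay well above the highest Ctrl library. Its log2 fold change was 0.91 (SE 0.11), a 1.89-fold rise, with an adjusted p of 2.88e-04 by edgeR (quasi-likelihood test, Benjamini-Hochberg).

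*Mcidas*, which with E2F factors starts the program and centriole amplification, was at 2.80, 2.73 and 1.80 CPM in Ctrl and 4.38, 4.76 and 3.74 CPM in cKO. The groups did not overlap, but the log2 fold change of 0.81 (SE 0.23) had an adjusted p of 0.027 and was not called. *Ccno*, a cyclin-like protein needed to make many centrioles and a neighbour of *Mcidas* on chromosome 13, was at 3.78, 1.37 and 3.21 CPM in Ctrl and 4.10, 5.28 and 3.55 CPM in cKO. Ctrl 2 was low and Ctrl 1 lay within the cKO range, and the log2 fold change of 0.63 (SE 0.33) had an adjusted p of 0.195. *Gmnc*, which acts upstream of *Mcidas*, was at 1.63, 1.17 and 0.963 CPM in Ctrl and 1.33, 1.30 and 3.05 CPM in cKO. Only cKO 3 stood above the Ctrl libraries, and the log2 fold change of 0.59 (SE 0.41) had an adjusted p of 0.324.

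**Figure D3:**
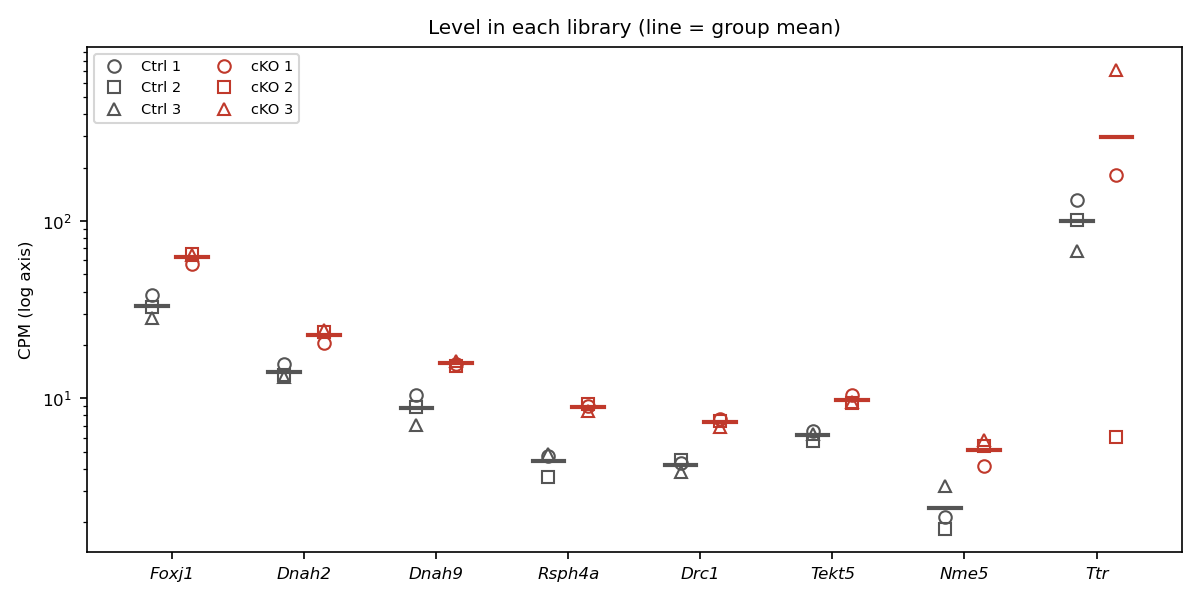
Level in CPM (log axis) of 7 of the 9 genes called higher and of the choroid plexus gene Ttr in each library (Ctrl grey, cKO red; circles, squares and triangles for replicates 1, 2 and 3; lines for group means). All cKO points of the 7 genes lie above the Ctrl points, whereas Ttr spans 6.06 to 711 CPM within cKO.

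Of the 15 axonemal dynein heavy chains, 13 had a log2 fold change above 0 and 2 below it. Past the thresholds, 4 were called higher and 1 lower, where 3.03% and 3.63% of all tested genes were. *Dnah2*, an inner arm heavy chain, was at 15.7, 13.5 and 13.1 CPM in Ctrl and at 20.4, 23.7 and 24.4 CPM in cKO. *Dnah9*, a heavy chain of the outer arms, was at 10.4, 8.92 and 7.06 CPM in Ctrl and 15.7, 15.3 and 16.3 CPM in cKO. The cKO values lay above the Ctrl values for both genes, and those of *Dnah9* were close together in cKO. The log2 fold change of *Dnah2* was 0.70 (SE 0.11, adjusted p = 0.00143), and that of *Dnah9* was 0.84 (SE 0.14, adjusted p = 0.00193). *Dnah9* lost its call without cKO 3, where its adjusted p was 0.01.

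*Dnah10*, an inner arm heavy chain, was at 9.24, 6.97 and 7.58 CPM in Ctrl and 15.9, 11.2 and 13.6 CPM in cKO. *Dnah11*, another heavy chain of the outer arms, was at 3.97, 3.58 and 4.88 CPM in Ctrl and 7.79, 8.08 and 6.17 CPM in cKO. Neither gene overlapped between the groups. The log2 fold changes were 0.77 (SE 0.16, adjusted p = 0.00614) for *Dnah10* and 0.82 (SE 0.18, adjusted p = 0.00848) for *Dnah11*. The call of *Dnah10* was lost without Ctrl 2, Ctrl 3, cKO 1 or cKO 3, with an adjusted p up to 0.0279. That of *Dnah11* held without cKO 3 and was lost without any of the other 5, with an adjusted p up to 0.0356. *Dnah11* overlaps *Cdca7l* on the opposite strand, and the use of strand in counting is not given in the sources used here. *Cdca7l* moved the other way, with a log2 fold change of −1.11 (SE 0.10, adjusted p = 4.84e-05).

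*Dnah17*, a heavy chain known from the outer arms of sperm flagella, was at 18.4, 12.7 and 14.6 CPM in Ctrl and 8.59, 10.6 and 8.97 CPM in cKO. All cKO libraries lay below all Ctrl libraries, in contrast to the other called heavy chains. The log2 fold change was −0.70 (SE 0.15) with an adjusted p of 0.00778 in edgeR's quasi-likelihood test. The call was lost without Ctrl 1, Ctrl 3, cKO 1 or cKO 3, with an adjusted p up to 0.0338. *Dnah17* overlaps *Pgs1* on the opposite strand, which had 4620 counts over the 6 libraries against 1160 for *Dnah17* and a log2 fold change of 0.04 (SE 0.07).

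The other 10 heavy chains were not called. *Dnah1* (log2 fold change 0.44, SE 0.11, adjusted p = 0.0134) and *Dnah6* (0.74, SE 0.19, adjusted p = 0.0174), both of inner arms, did not overlap between the groups. *Dnah3*, *Dnah8* and *Dnah12* had log2 fold changes of 0.72, 0.80 and 0.41, with adjusted p between 0.114 and 0.328, and *Dnah8* passed the filter minimum in 5 of the 6 libraries. *Dnah14* was the only other heavy chain with a negative value, −0.63 (SE 0.32, adjusted p = 0.184). It had 121 counts in all and overlaps *Lbr* on the opposite strand, which had 4921 counts and a log2 fold change of −0.85 (SE 0.06). *Dnah5*, the outer arm heavy chain most often mutated in primary ciliary dyskinesia, was at 3.45, 4.17 and 4.49 CPM in Ctrl and 5.71, 7.69 and 4.42 CPM in cKO, and cKO 3 fell inside the Ctrl range (0.55, SE 0.22, adjusted p = 0.0992). The paralogs *Dnah7a*, *Dnah7b* and *Dnah7c* had log2 fold changes of 0.44, 0.02 and 0.19, all with overlapping groups. These 3 copies may share reads, so their division is uncertain.

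The dynein light chain genes were among the most abundant and differed little. *Dnal1*, an outer arm light chain, was at 42.1, 44.7 and 38.1 CPM in Ctrl and 45.3, 51.6 and 49.6 CPM in cKO, with the lowest cKO value just above the highest Ctrl value. *Dnal4*, a small dynein light chain, was at 34.0, 30.0 and 33.6 CPM in Ctrl and 30.4, 31.5 and 28.0 CPM in cKO, and the groups overlapped. The log2 fold changes were 0.23 (SE 0.08, adjusted p = 0.0735) and −0.12 (SE 0.09, adjusted p = 0.344), so 0 of the 2 were called by edgeR or DESeq2, with 1 at an unadjusted p under 0.05 in each. No gene named *Dnai* with a number is in the table. The outer arm intermediate chain *Dnaic2*, listed under its older symbol and therefore no member, was called higher (0.61, SE 0.12, adjusted p = 0.00555), and its partner *Dnaic1* was not (0.58, SE 0.23, adjusted p = 0.0973).

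Dynein arm assembly factors build the arms in the cytoplasm before they enter the cilium, and they divided into 2 pairs. *Dnaaf3* was at 5.86, 4.69 and 5.01 CPM in Ctrl and 7.96, 8.02 and 6.85 CPM in cKO, without overlap (log2 fold change 0.55, SE 0.15, adjusted p = 0.0252). *Dnaaf1* had a log2 fold change of 1.04 (SE 0.34, adjusted p = 0.0499) at a mean of 1.04 CPM in Ctrl and 2.14 CPM in cKO, also without overlap. By contrast, *Dnaaf5* was at 15, 17.3 and 13 CPM in Ctrl and 13.8, 14.3 and 15.3 CPM in cKO. *Dnaaf2* was at 2.08, 2.21 and 2.12 CPM in Ctrl and 2.31, 1.76 and 2.06 CPM in cKO. Both had overlapping groups and a log2 fold change of −0.06, with SEs of 0.12 for *Dnaaf5* and 0.24 for *Dnaaf2*, and the sign of each changed when 1 library was left out (0.05 for *Dnaaf5* without Ctrl 2 and 0.04 for *Dnaaf2* without cKO 2). Of the 4 genes, 0 were called by edgeR or DESeq2, and 2 had an unadjusted p under 0.05 in each.

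Radial spokes link the outer microtubules to the central pair. All 6 tested spoke genes had a log2 fold change above 0, and 1 was called higher, beside 3.03% of all tested genes. *Rsph4a*, a spoke head protein, was at 4.75, 3.58 and 4.88 CPM in Ctrl and 9.0, 9.25 and 8.53 CPM in cKO, so that every cKO library stood far above every Ctrl library. Its log2 fold change of 1.02 (SE 0.16, 2.02-fold) had an adjusted p of 0.00138. The spoke head gene *Rsph1* had a log2 fold change of 0.82 (SE 0.19) without overlap, and its adjusted p of 0.0116 was just outside the threshold. *Rsph3a* and *Rsph3b*, near-identical copies that may share reads, encode a spoke stalk protein. *Rsph3a* was at 10.9, 11.3 and 5.46 CPM in Ctrl and 9.92, 16.2 and 9.16 CPM in cKO, with Ctrl 3 low, cKO 2 high and the rest mixed (log2 fold change 0.35, SE 0.28, adjusted p = 0.408). *Rsph3b* was at 7.94, 9.44 and 8.73 CPM in Ctrl and between 9.96 and 11 CPM in cKO, without overlap (0.25, SE 0.12, adjusted p = 0.169). *Rsph9* and *Rsph10b*, which overlap *Mrps18a* and *Pms2*, had log2 fold changes of 0.26 and 0.48. *Rsph14* was not tested, with 3, 6 and 6 counts in Ctrl and 6, 5 and 14 in cKO, nor was *Rsph6a*, a spoke gene of sperm, with 1, 2 and 4 counts in Ctrl and 2, 0 and 4 in cKO.

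The regulatory complex and the rulers that set the repeat along the axoneme did not move alike. *Drc1*, a scaffold subunit of the nexin-dynein regulatory complex, was at 4.30, 4.49 and 3.85 CPM in Ctrl and 7.67, 7.49 and 6.91 CPM in cKO. The groups were clearly apart and narrow, with a log2 fold change of 0.80 (SE 0.15, adjusted p = 0.00358). The call held without cKO 2 and was lost without any of the other 5 libraries, with an adjusted p between 0.01 and 0.0175. *Ccdc39* was at 19.9, 22.5 and 18.9 CPM in Ctrl and 21.2, 26.1 and 21.1 CPM in cKO. *Ccdc40*, its partner in the ruler, was at 18.4, 15.6 and 12.6 CPM in Ctrl and 18.7, 19.5 and 20.2 CPM in cKO. *Ccdc39* overlapped between the groups (0.16, SE 0.11, adjusted p = 0.344), whereas *Ccdc40* did not (0.33, SE 0.13, adjusted p = 0.0938). Neither was called.

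All 4 genes of the central apparatus, which surrounds the central pair of microtubules, were higher in each cKO library than in each Ctrl library. The same held for 20.4% of all tested genes, and 0 of the 4 were called by edgeR or DESeq2. In both tools 3 of them had an unadjusted p under 0.05. *Hydin*, a giant protein whose loss causes hydrocephalus in mice, was at 5.79, 8.01 and 5.14 CPM in Ctrl and 8.94, 10.8 and 10.5 CPM in cKO (log2 fold change 0.67, SE 0.18, adjusted p = 0.0201). Without Ctrl 2, the highest of its Ctrl libraries, *Hydin* was called at 0.88. *Spag16* was at 2.54, 2.60 and 2.31 CPM in Ctrl and 4.44, 4.11 and 3.99 CPM in cKO, with a wide gap for its low level (0.75, SE 0.19, adjusted p = 0.0162). *Spag6l* was at 4.17, 5.66 and 5.91 CPM in Ctrl and 6.52, 8.02 and 7.91 CPM in cKO (0.51, SE 0.18, adjusted p = 0.0597). *Spag17* had a log2 fold change of 0.48 (SE 0.23). *Spag6*, the parent copy of *Spag6l*, had at most 0.391 CPM in a library.

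Tektins form filaments inside the outer microtubule doublets. All 4 tested had a log2 fold change above 0, and 1 was called higher, beside 3.03% of all tested genes. *Tekt5*, best known from sperm tails, was at 6.51, 5.73 and 6.29 CPM in Ctrl and 10.5, 9.45 and 9.47 CPM in cKO. The groups did not overlap and spread little, with a log2 fold change of 0.67 (SE 0.13, adjusted p = 0.00428). The call held without cKO 2 and was lost without any of the other 5 libraries, with an adjusted p between 0.0118 and 0.022. *Tekt1* was at 6.12, 5.27 and 4.69 CPM in Ctrl and 7.73, 7.10 and 6.98 CPM in cKO, without overlap (0.44, SE 0.15, adjusted p = 0.0622). *Tekt2* was at 7.49, 5.47 and 5.52 CPM in Ctrl and 8.02, 4.82 and 7.29 CPM in cKO, with the lowest value in cKO 2. Its log2 fold change of 0.13 (SE 0.21, adjusted p = 0.704) turned to −0.02 without cKO 1. *Tekt4* had 0.77 (SE 0.27, adjusted p = 0.0606). *Tekt3* was not tested, with 5, 3 and 3 counts in Ctrl and 2, 8 and 7 in cKO.

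*Nme5* and *Tppp3* remained. *Nme5*, a nucleoside diphosphate kinase family protein of the radial spokes, was at 2.15, 1.82 and 3.21 CPM in Ctrl and 4.15, 5.41 and 5.85 CPM in cKO. The groups did not overlap, and its log2 fold change of 1.10 (SE 0.25, adjusted p = 0.0099) was the largest of the 44 but lay at the edge of the threshold. The call held without Ctrl 3 and was lost without any of the other 5 libraries, with an adjusted p between 0.0127 and 0.0419. *Tppp3*, a tubulin-binding protein found in ciliated cells and also in other cells, was at 34.9, 27.5 and 32.1 CPM in Ctrl and 36.5, 35.7 and 41.3 CPM in cKO. The groups were next to each other without overlap (0.26, SE 0.10, adjusted p = 0.0875).

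The motile cilium genes lay higher in each cKO library, whereas the choroid plexus transcript *Ttr* did not. The median log2 difference of the motile cilium genes from the Ctrl mean was 0.03, 0.04 and −0.05 in Ctrl 1, 2 and 3 and 0.37, 0.56 and 0.51 in cKO 1, 2 and 3. *Ttr*, the transthyretin gene and the most abundant choroid plexus transcript, was at 131, 101 and 67.7 CPM in Ctrl and at 181, 6.06 and 711 CPM in cKO. *Ttr* was therefore lowest of all libraries in cKO 2 and highest in cKO 3, while *Foxj1* was at 65.2 and 64.3 CPM in the same libraries. The log2 fold change of *Ttr* was 1.58 (SE 0.97, adjusted p = 0.271 in edgeR's quasi-likelihood test), and it was −0.09 without cKO 3 and 2.17 without cKO 2, where it was called.

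The choroid plexus list also varied between the cKO libraries. Its 18 genes were all tested and none was at 0 in any library. Their summed level was 178 to 242 CPM in Ctrl and 283, 76.8 and 859 CPM in cKO 1, 2 and 3, much of it *Ttr*. Without *Ttr* the other 17 summed to 102 to 111 CPM in Ctrl and to 102, 70.7 and 149 CPM in cKO 1, 2 and 3. A large part of these sums was *Otx2*, which moved against most of the list. It was at 55.5, 49.0 and 54.2 CPM in Ctrl and 24.7, 22.0 and 24.0 CPM in cKO. Of the 18, 16 had a log2 fold change above 0, against 49.1% of all tested genes, with a median of 0.77, but 13 overlapped between the groups. All cKO libraries lay above all Ctrl libraries for 4 genes, against 20.4% of all tested genes. These were *Kcnj13*, *Kl*, *Slc4a5* and *Slc13a4*, with log2 fold changes of 1.74, 0.94, 1.80 and 0.60. All cKO libraries lay below for 1, *Otx2*, against 20.1%. By edgeR 0 of the 18 were called higher, beside 3.03% of all tested genes, with 5 at an unadjusted p under 0.05. DESeq2 called 2, beside 1.78% of all genes in that fit. The count was 6 without cKO 2, beside 3.16%, and 7 with no filter on low counts, beside 2.26%. *Otx2* alone was called lower (−1.16, SE 0.08, adjusted p = 1.81e-05), and it is also a gene of granule progenitors. Another fit, added after the data were seen, took the summed choroid plexus level as a covariate. In it 9 motile cilium genes were higher, beside 2.99% of all tested genes, and 8 of them were among the 9 above. With both cKO 2 and cKO 3 left out, another added fit in which cKO 1 is assumed to vary like Ctrl, 2 were higher and the median was 0.39.

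**Figure D4:**
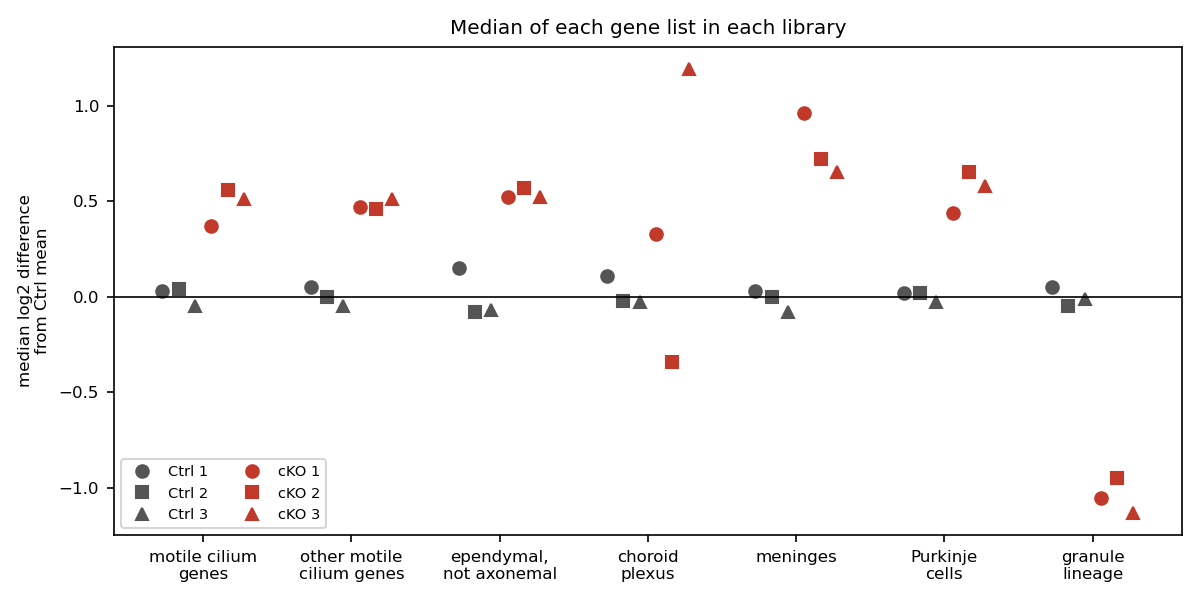
Median log2 difference from the Ctrl mean over the tested genes of each list in each library (Ctrl grey, cKO red; circles, squares and triangles for replicates 1, 2 and 3). The cKO medians of the motile cilium genes are 0.37, 0.56 and 0.51, those of the choroid plexus list 0.33, −0.34 and 1.19, and those of the granule lineage −1.05, −0.95 and −1.13.

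Other genes of motile cilia, listed apart from the 47, also lay higher in cKO. Of 79 such genes (*Cfap* genes, further dynein chains, assembly factors and others), 75 were tested, 68 had a log2 fold change above 0 and the median was 0.56. Among them 11 were called higher, beside 3.03% of all tested genes. By edgeR 0 were called lower, with 2 at an unadjusted p under 0.05, and DESeq2 called 0. The smallest p-values were those of *Ak7*, an adenylate kinase of motile cilia, *Wdr63*, an inner arm intermediate chain, and *Spef2*, a central apparatus protein. *Ak7* was at 5.86, 5.34 and 5.71 CPM in Ctrl and 10.2, 11.3 and 12.5 CPM in cKO (1.01, SE 0.13, adjusted p = 5.64e-04). *Wdr63* was at 2.93, 3.84 and 2.83 CPM in Ctrl and 6.29, 7.89 and 7.22 CPM in cKO (1.15, SE 0.18, adjusted p = 0.00157). *Spef2* was at 3.78, 3.71 and 4.24 CPM in Ctrl and 6.75, 9.78 and 7.47 CPM in cKO (1.03, SE 0.18, adjusted p = 0.0027). The groups of all 3 were far apart. *Spef2* lost its call without Ctrl 1 or Ctrl 2, with an adjusted p of up to 0.0133. Without Ctrl 2, Ctrl 3, cKO 1 or cKO 3 the 11 calls became 3, 5, 7 and 4.

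Further regulators of multiciliated cells and centriole amplification did not share a direction, with 7 log2 fold changes above 0 and 7 below it. Of 14 such genes 1 was called higher, beside 3.03% of all tested genes, and 2 lower, beside 3.63%, with a median of −0.10. All cKO libraries lay above all Ctrl libraries for 4 of them, against 20.4% of all tested genes, and below for 6, against 20.1%. *Foxn4*, a forkhead factor that also acts in neural progenitors, was at 1.30, 0.846 and 0.963 CPM in Ctrl and 2.19, 3.78 and 2.80 CPM in cKO (1.48, SE 0.31, adjusted p = 0.0067). This call held without cKO 1 and was lost without any of the other 5 libraries, with an adjusted p of up to 0.0296. *Plk4*, the kinase of centriole duplication, was at 39.3, 43.0 and 38.1 CPM in Ctrl and 24.1, 24.8 and 24.0 CPM in cKO (−0.72, SE 0.08, adjusted p = 1.98e-04). *Gmnn*, a replication licensing inhibitor, was at 17.3, 17.3 and 16.4 CPM in Ctrl and 10.8, 12.8 and 10.8 CPM in cKO (−0.57, SE 0.10, adjusted p = 0.00322). Both genes called lower are used by every dividing cell. Of the RFX factors in this list, *Rfx2* and *Rfx4* had log2 fold changes of 0.30 (SE 0.10) and 0.29 (SE 0.07), without overlap. *Rfx3* had −0.23 (SE 0.18) with overlapping groups, and none of them was called. The call of *Gmnn* held without cKO 2 and was lost without any of the other 5 libraries, and the list had 1 gene called lower without Ctrl 2, Ctrl 3, cKO 1 or cKO 3.

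Genes listed as ependymal cell markers, apart from those in the motile cilium lists, lay higher in cKO as well. Whether each of them is absent from the axoneme was not tested. Of 17, 15 were tested, 14 of them had a log2 fold change above 0, and the median was 0.60. The summed level of the 17 was 87.1 to 96.9 CPM in Ctrl and 132 to 137 CPM in cKO, and 3 were called higher. The largest parts of this sum were *Anxa2*, with means of 31.5 CPM in Ctrl and 44.7 CPM in cKO, and *S100a11*, with 15.5 and 20.3 CPM. Over all tested genes, 49.1% had a log2 fold change above 0 and 3.03% were called higher. *Fam216b* was at 4.69, 3.58 and 5.14 CPM in Ctrl and 8.36, 8.41 and 10.1 CPM in cKO (1.0, SE 0.17, adjusted p = 0.00234). *Ccdc153* was at 4.56, 4.69 and 3.27 CPM in Ctrl and 6.81, 7.49 and 9.34 CPM in cKO (0.92, SE 0.19, adjusted p = 0.00691). *Anxa2*, an annexin found in many cell types, was at 30.7, 32.7 and 31.1 CPM in Ctrl and 47.5, 44.7 and 41.9 CPM in cKO (0.51, SE 0.08, adjusted p = 0.00126). None of the 3 overlapped between the groups. *Fam216b* lost its call without cKO 3 (adjusted p = 0.0122), *Anxa2* without Ctrl 1, Ctrl 3 or cKO 1, where its log2 fold change was as low as 0.46, and *Ccdc153* without any library other than cKO 2, with an adjusted p of up to 0.0308. The defining marker *Sntn* was under the filter, with at most 0.587 CPM in a library, and *Mia* was at 0 in cKO 3.

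Other cell type lists moved in the same libraries. The granule neuron lineage fell, with 8 of 10 genes called lower, a median of −1.05 and a summed level of 4340 to 4460 CPM in Ctrl and 2590 to 2810 CPM in cKO. Purkinje cell genes had a median of 0.57, with 4 of 8 called higher. *Lhx1* in this list went the other way, at −0.38 (SE 0.05, adjusted p = 7.78e-04 in edgeR's quasi-likelihood test). Meningeal genes had a median of 0.79, with 5 of 8 called higher and summed levels of 393 to 428 CPM in Ctrl and 603 to 729 CPM in cKO. The meningeal genes *Dcn* and *Lum* had log2 fold changes of −0.05 and −0.16. Over all tested genes, 3.03% were called higher and 3.63% lower. None of these 3 lists had a gene at 0 in any library. The Purkinje cell median is close to the 0.53 of the motile cilium genes, and the part that these shifts between cell types have in the result was not tested.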

How the data were processed

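Poly-A RNA libraries of cerebella, 3 Ctrl and 3 cKO, were compared, with groups taken from the labels. Per the labels and methods, clean reads were mapped to mm10 with HISAT2 2.0.5 and summarised over genes with featureCounts 1.5.0-p3, and the authors deposited raw counts. Strandedness, treatment of multi-mapped reads and the gene annotation used are not given in the sources used here. The authors derived the deposited FPKM from these counts and each gene's length.

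Counts were fitted over the whole table by edgeR 4.0.16 under R 4.3.3 (TMM, filterByExpr, two-sided glmQLFTest after glmQLFit, Benjamini-Hochberg adjustment over 17505 genes). The thresholds were an adjusted p of 0.01 and a log2 fold change of 0.5, as in the study's methods. CPM used TMM-scaled totals. Library totals of 15391854 to 17178478 and a common dispersion of 0.0105 set the precision, and 3 counts, at most 0.196 CPM, were the floor. Same-group libraries differed by more than sampling noise (mean chi-square per gene 3.66 to 10.2), so none was a re-sequenced copy of another. This cannot tell whether 2 libraries came from the same animal. Permuting 3 against 3 libraries was not used, and p-values rest on the model.

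The genes and lists were chosen with earlier results of these data known. Named with all 6 values were the regulators, *Ttr*, *Tox3*, up to 6 called genes per role by p, with the most abundant added until 3 were named, and up to 3 called genes of the motile cilium, multiciliated, choroid plexus and ependymal lists; others named were chosen after their values were seen. Granule, Purkinje and meningeal genes are given as lists, with only those named that went against the rest of their list. Promoter letters were read from the RefSeq table of GRCm38.p6, with 1 promoter off its gene left out. Alternatives were DESeq2 1.42.0, its size factors, library totals, other count filters, a replicate block, limma 3.58.1 on log2(FPKM + 1) and log2(FPKM + 0.1) for genes with a mean of at least 0.1 FPKM, a Y-chromosome covariate, looser thresholds and each library left out. The fits were tested on simulated counts.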

Additional observations from a re-analysis of the deposited data

How the results depend on the processing

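Of 28 named motile cilium genes, 15 kept the same direction and side of the thresholds in all 17 other fits, but *Foxj1* was the only called gene among these, and the other 8 genes called higher and *Dnah17* lost their call in some fit. 3 of the 28 changed sign in some fit. The count of 9 genes called higher, beside 3.03% of all tested genes, was 4 with limma on log2(FPKM + 1) (1.05% of all genes) and 4 with log2(FPKM + 0.1) (1.28%), 13 with no count filter (2.26%), 13 with the Y-chromosome covariate (3.55%), 11 with DESeq2, which held all 9 (1.78%), 2 with both cKO 2 and cKO 3 left out (1.48%, added after the data were seen), and 17 at an adjusted p under 0.05 (12.2%), or 16 with the fold threshold kept (4.79%). Leaving out 1 library gave 4 to 7. The count of 1 called lower was 0 in both limma fits and with both cKO libraries out, and 0 to 1 with 1 library out. Roles with a gene called higher were 6, 3 to 5 with 1 library out and 2 with both out. The median of 0.53 was 0.24 and 0.43 in the limma fits on pseudocounts of 1 and 0.1, 0.60 with the Y-chromosome covariate, 0.39 with both out and 0.47 to 0.59 with 1 out. For the other motile cilium genes, the 11 called higher were 21 without a filter, 4 and 3 in the limma fits, 0 with both out, 30 or 27 at an adjusted p under 0.05 and 3 to 9 with 1 out, and the 0 called lower were 1 without a filter, with at least 10 counts in every library, and at an adjusted p under 0.05. For the multiciliated regulators, the 1 called higher was 2 without a filter, 0 in the limma fits and with both out, 4 or 2 at an adjusted p under 0.05 and 0 to 1 with 1 out, and the 2 called lower were 1 with both out, 5 at an adjusted p under 0.05 and 1 to 3 with 1 out. Directions that reversed were those of *Dnaaf5* (−0.16 to 0.05 with 1 out, 0.05 without Ctrl 2), *Dnaaf2* (−0.16 to 0.04 with 1 out, 0.04 without cKO 2, 0.12 with both out), *Tekt2* (−0.03 with the Y-chromosome covariate, −0.02 to 0.32 with 1 out, −0.02 without cKO 1) and *Ttr*, which was −0.06 with limma on log2(FPKM + 0.1), −0.09 without cKO 3 and −0.48 with the choroid plexus covariate. *Ttr* was called at 1.59 without a filter and at 2.17 without cKO 2. The choroid plexus covariate is a summed level that contains *Ttr* itself, so the −0.48 cannot tell its direction. Fewer samples enter each fit with libraries out. In the limma fits, a pseudocount added to levels near or below it makes log2 fold changes smaller by arithmetic. *Dnah11*, for example, went from 0.82 to 0.23 with a pseudocount of 1. How much of the difference this makes, and the cause for the other settings, was not tested.

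The labels give both groups the replicate numbers 1 to 3 but do not say that a number marks a litter or day. Deviations of same-numbered libraries from their group means correlated at 0.265, 0.295 and −0.163, so the numbers were not taken as pairs. With the replicate block, 10 genes were called higher, beside 3.2% of all tested genes, 8 of them among the 9, with a median of 0.52.

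Low counts limit *Gmnc*, *Dnaaf1*, *Dnah8* and *Dnah14*, and for the 3 genes not tested a difference was not detectable at this depth.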

Other observations

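A few genes of the wider motile cilium list went against the direction of the others; they were picked after their values were seen. Of the 75 tested, 7 had a log2 fold change below 0, and in 4 of them, *Cfap77*, *Nme7*, *Spef1* and *Mns1*, all cKO libraries lay below all Ctrl libraries, beside 20.1% of all tested genes. *Cfap77*, a protein inside the outer doublet microtubules, was at 3.97, 3.97 and 3.66 CPM in Ctrl and 1.85, 2.41 and 1.87 CPM in cKO, without overlap. Its log2 fold change was −0.92 (SE 0.21), and its adjusted p of 0.0103 in edgeR's quasi-likelihood test was just outside the threshold. The other 3 had log2 fold changes of −0.30, −0.14 and −0.14 and were not called.

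The ciliary genes called higher outside the 47 included *Pifo*, at 1.11, 1.17 and 1.16 CPM in Ctrl and 2.83, 3.58 and 2.74 CPM in cKO, with the largest log2 fold change of the 75 (1.41, SE 0.25, adjusted p = 0.00292). *Enkur* was at 5.01, 4.56 and 3.27 CPM in Ctrl and 8.07, 8.28 and 8.47 CPM in cKO (0.95, SE 0.17, adjusted p = 0.00348). Neither overlapped between the groups. *Deup1*, the defining gene of the deuterosome on which multiciliated cells build their centrioles, was at 5.60, 5.60 and 4.24 CPM in Ctrl and 8.31, 8.08 and 7.35 CPM in cKO. Its groups were apart, with a log2 fold change of 0.62 (SE 0.16) and an adjusted p of 0.0174, so it was not called, and *Cep152*, a scaffold of centriole duplication, had −0.61 (SE 0.14, adjusted p = 0.0114).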
